A study of Mus musculus with 16 samples.

Results

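Chemokine genes and their receptors were taken as the rows whose symbol is Ccl, Cxcl, Ccr or Cxcr with a number and an optional letter, or is *Xcl1*, *Cx3cl1* or *Ackr1* to *Ackr4*. This gave 54 of the 49452 genes in each table. Of the 54, 34 encode ligands (19 Ccl, 13 Cxcl, *Xcl1* and *Cx3cl1*), 16 encode signalling receptors (10 Ccr and 6 Cxcr) and 4 encode atypical receptors. RNA-Seq was made from skin of mice in which *Sas-4* was deleted in the stratified epithelium, and of their controls, in 16 libraries with 4 per group and stage. At P0, the material was epidermal keratinocytes freed with dispase II and TrypLE and frozen without plating. The 4 mutants were *K14-Cre* tg/wt with both *Sas-4* alleles floxed. The 4 controls were *Sas-4* fl/wt, and 2 of them (controls 2 and 3) also carried *K14-Cre*. At E13.5, the material was epidermal sheets of back skin, separated with trypsin and pancreatin. There the 4 libraries titled mutant carried *K14-Cre* with both alleles floxed, and the 4 titled control were *Sas-4* fl/wt without Cre. *K14-Cre* acts in keratinocytes and not in the immune cells that live between them, so those cells keep *Sas-4*. The labels give the strain as FVB/C57BL6.

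*Sas-4* is listed as *Cenpj*, which is needed to build centrioles. At P0 its FPKM was 1.52, 1.41, 1.35 and 1.09 in mutants 1 to 4, against 4.35, 3.35, 3.22 and 4.29 in controls 1 to 4. At E13.5 it was 9.17, 8.66, 9.02 and 8.74 in the libraries titled mutant, against 3.72, 3.85, 3.56 and 3.66 in those titled control, which goes against the titles. The column names of the E13.5 table also give each of the 8 libraries the opposite genotype. E13.5 values are given by title, and every E13.5 direction is the opposite for groups made from the column names. FPKM, deposited by the authors, are fragment counts scaled to transcript length and library size. Read numbers are unknown, and low FPKM values gave depths of 0.940 to 1.10 in P0 mutants and 0.920 to 1.014 in P0 controls relative to P0 control 1. At E13.5 the depths were 0.835 to 0.908 in titled mutants and 0.933 to 1.02 in titled controls, relative to titled control 1. The labels do not say whether libraries of a group came from separate animals, so p-values measure the spread between libraries.

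Chemokines are small secreted proteins that guide cells along gradients. They bind receptors that couple to inhibitory G proteins, while the atypical receptors bind chemokines without that coupling and mostly remove them. In skin, keratinocytes make some chemokines at rest, such as *Cxcl14* and *Ccl27a*, and others only when stressed or inflamed. Langerhans cells, dendritic epidermal T cells and dermal cells carry most of the receptors. Gene positions are those of GENCODE M21 on GRCm38. In bulk RNA, fewer cells of a type cannot be told apart from less RNA per cell.

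The ligand genes that moved together across libraries at P0 included *Cxcl1* and *Cxcl2*, which lie in a cluster of Cxcl genes on chromosome 5 that also holds *Cxcl3*. RefSeq promoters (GRCm38.p6) were found for 39 of the 54 genes. A pattern that NF-kB (nuclear factor kappa B) is known to bind, GGG followed by any 2 bases and TTTCC, was searched on both strands from 250 bases before to 50 after each start. It was in the promoters of 6 genes, *Cxcl1*, *Cxcl2*, *Cxcl3*, *Ccl9*, *Ccl20* and *Ccr3*, and in 1.63% of 32851 mouse promoters. Of the other ligands that split the P0 libraries, described further on, *Cxcl10*, *Ccl3*, *Ccl12* and *Ccl17* had promoters without a match. *Cxcl3*, *Ccl9*, *Ccl20* and *Ccr3* had a match but did not split the libraries in both groups. A match is a description of the letters only. The levels of *Cxcl1* and *Cxcl2* split the P0 libraries and overlapped between the genotypes. Their ratio, chosen after the values were seen, parted by genotype, as described further on. *Cxcl3* is of the same cluster. The 120 bases before the start of *Cxcl1*, *Cxcl2* and *Cxcl3* are therefore shown, with the matched letters in capitals. They lie on the plus strand at chr5:90891125-90891244 (*Cxcl1*), chr5:90903779-90903898 (*Cxcl2*) and chr5:90785981-90786100 (*Cxcl3*).
Cxcl1: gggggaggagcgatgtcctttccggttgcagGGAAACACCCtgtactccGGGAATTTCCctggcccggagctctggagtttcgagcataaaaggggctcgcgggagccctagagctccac
Cxcl2: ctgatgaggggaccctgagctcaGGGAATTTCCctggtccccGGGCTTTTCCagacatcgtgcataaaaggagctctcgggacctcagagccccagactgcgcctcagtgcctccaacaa
Cxcl3: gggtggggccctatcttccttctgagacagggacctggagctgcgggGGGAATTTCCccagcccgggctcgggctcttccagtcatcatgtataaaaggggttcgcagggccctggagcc
*Cxcl1* and *Cxcl2* each have 2 matches and *Cxcl3* has 1. The run GGGAATTTCC is in each of the 3 promoters, beginning 71 bases before the start in *Cxcl1*, 97 in *Cxcl2* and 73 in *Cxcl3*.

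At P0, the *Sas-4* mutant libraries held less RNA of the 4 receptors above the filter: *Cxcr4*, *Ackr3*, *Ackr4* and *Ccr1* all fell. Of the ligands, *Xcl1*, *Ccl27a* and *Cxcl14* fell and *Cxcl16* rose. Markers of myeloid cells (54.9 to 64.1 summed FPKM in mutants, 154 to 235 in controls), T cells (5.98 to 8.30 in mutants, 15.6 to 26.3 in controls) and hair follicles (107 to 199 in mutants, 1561 to 1861 in controls) were lower in the same libraries. All 6 hair follicle markers were lower in every mutant than in any control. *Krt15* made up most of their sum (92.6 to 176 FPKM in mutants, 1402 to 1658 FPKM in controls). *Lck* made up most of the T cell sum in mutants (3.44 to 5.33 FPKM) but not in controls (5.70 to 6.56 FPKM). Summed markers of keratinocytes, melanocytes and endothelium were higher in mutants, as described further on. Genes were tested with limma on log2(FPKM + 1) where FPKM reached 1 in at least 4 of the 8 libraries, with Benjamini-Hochberg adjustment over all 13033 genes tested and a threshold of 0.05. The filter passed 14 of the 54 genes, of which 7 fell, 1 rose and 6 did not pass the test. Over all genes tested, 30.7% fell and 11.7% rose, with a median log2 difference of -0.15. After median-of-ratios scaling that median was 0.03, with 2725 genes higher and 2300 lower in mutants, against 1520 higher and 3995 lower before it. With a limma p, before adjustment, not above 0.05 and a difference of 2-fold or more, *Cxcr4*, *Xcl1*, *Ackr4* and *Ccr1* fell and 0 chemokine genes rose, beside 5.33% and 2.63% of all genes. The filter can be passed through the controls alone, as by *Xcl1*, which was under 1 FPKM in all 4 mutants. The controls also sufficed for *Ccr1*, which among the mutants reached 1 FPKM in mutant 4 only.

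**Figure D1:**
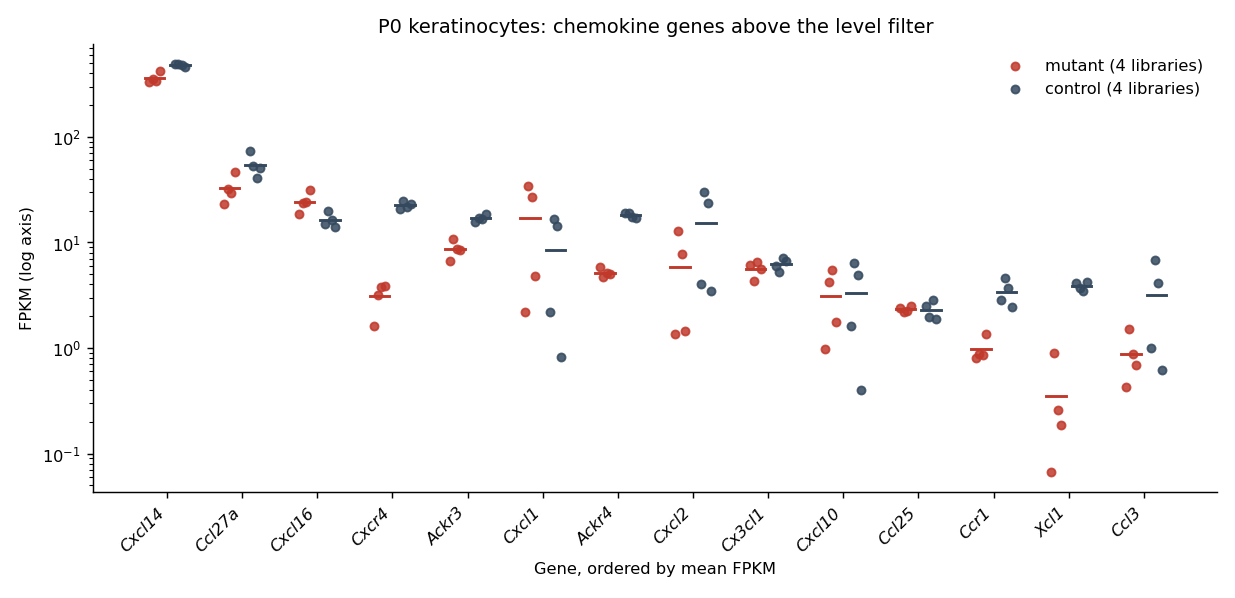
FPKM of the 14 chemokine genes above the level filter at P0, on a log axis, with 1 point per library (4 mutants left, 4 controls right) and a bar at the mean of each group. The mutants lie below all controls for *Cxcr4*, *Ackr3*, *Ackr4*, *Ccr1*, *Xcl1* and *Cxcl14*, and the points of *Cxcl1*, *Cxcl2* and *Cxcl10* spread widely within both groups.

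*Cxcl14* (ENSMUSG00000021508, chr13:56288647-56296551, minus strand), a chemokine made by resting epithelia, was the most abundant chemokine RNA of the epidermis. At P0 it had 334, 355, 336 and 416 FPKM in mutants, against 486, 486, 475 and 457 FPKM in controls. It made up 74.3% to 85% of the summed FPKM of all 34 ligands in mutant libraries and 75.6% to 84.0% in control libraries. All 4 mutants lay below all 4 controls, and the log2 difference was -0.41 with a standard error of 0.09 (limma adjusted p = 0.00545). After median-of-ratios scaling it was -0.20 and no longer passed (limma adjusted p = 0.131), nor did it against the *K14-Cre* controls alone (adjusted p = 0.0523) or outside the label numbers 68 to 71 described further on (-0.34, adjusted p = 0.316).

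*Ccl27a* (ENSMUSG00000073888, chr4:41769467-41774247, minus strand), a keratinocyte chemokine that draws T cells to skin through *Ccr10*, had 23.2, 32.0, 29.4 and 46.5 FPKM in mutants, against 74.2, 53.2, 40.5 and 50.3 FPKM in controls. The groups overlapped, since mutant 4 lay above control 3. The log2 difference was -0.73 with a standard error of 0.22 (limma adjusted p = 0.0269). It no longer passed in 10 of 19 alternatives, among them leaving out mutant 1, 2 or 3 or control 1, 2 or 4, where the adjusted p from limma was 0.0513 to 0.0685. *Ccl27a* has near-identical copies in the genome and an exon that overlaps *Il11ra1* on the other strand, so its reads may not all be its own. *Ccl28*, the other ligand of *Ccr10*, stayed at 0.109 to 0.304 FPKM in mutants and at 0.291 to 0.692 FPKM in controls, under the filter.

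*Cxcl16* (ENSMUSG00000018920, chr11:70453983-70459984, minus strand), a membrane-bound ligand of *Cxcr6* that can be shed, had 18.6, 23.6, 24.3 and 31.1 FPKM in mutants, against 14.9, 19.9, 16.3 and 14.1 FPKM in controls. Mutants 2, 3 and 4 lay above all controls and mutant 1 lay below control 2. The log2 difference was 0.54 with a standard error of 0.16 (limma adjusted p = 0.0201). The call was lost without control 1 (adjusted p = 0.0548) or control 4 (adjusted p = 0.0587) and against the *K14-Cre* controls alone (0.40, adjusted p = 0.19). It was also lost within the label numbers 68 to 71 (0.39, adjusted p = 0.0505) and outside them (0.70, adjusted p = 0.159), and an exon of the gene overlaps *Zmynd15* on the other strand. *Cxcr6* itself was read at 0.0374 to 0.0996 FPKM in mutants and 0.147 to 0.226 FPKM in controls.

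*Xcl1* (ENSMUSG00000026573, chr1:164931644-164935527, minus strand) encodes lymphotactin, which activated T cells and natural killer cells secrete and which dendritic cells with *Xcr1* follow. Its FPKM was 0.067, 0.897, 0.261 and 0.187 in mutants, against 4.12, 3.68, 3.45 and 4.22 in controls. Every mutant was below every control, the means were 0.353 ± 0.371 in mutants and 3.87 ± 0.362 in controls (SD, n = 4 each), and the log2 difference was -1.88 with a standard error of 0.17 (limma adjusted p = 4.36e-05). The 8 T cell markers moved with it: all 8 were lower in every mutant than in any control, and their summed FPKM was 5.98 to 8.30 in mutants and 15.6 to 26.3 in controls. None of the 8 was at 0 in all libraries, and their part in the *Xcl1* result was not tested. An exon of *Xcl1* overlaps *Gm20743* on the other strand.

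*Cxcr4* (ENSMUSG00000045382, chr1:128588199-128592293, minus strand), the signalling receptor of *Cxcl12*, had the largest difference in log2(FPKM + 1) of the 14 genes, while with 0.1 added to FPKM the difference was larger for *Xcl1* (-3.45) than for *Cxcr4* (-2.90). It had 1.62, 3.16, 3.74 and 3.83 FPKM in mutants, against 20.9, 24.8, 21.5 and 23.2 FPKM in controls. The means were 3.09 ± 1.02 FPKM in mutants and 22.6 ± 1.77 FPKM in controls (SD, n = 4 each), a 7.31-fold lower level, with a log2 difference of -2.56 and a standard error of 0.18 (limma adjusted p = 1.47e-05). The groups did not overlap. *Ackr3* (ENSMUSG00000044337, chr1:90203980-90216751, plus strand), the atypical receptor that takes up the same ligand, had 6.69, 10.9, 8.67 and 8.39 FPKM in mutants, against 15.5, 17.1, 16.5 and 18.4 FPKM in controls, again without overlap (log2 difference -0.90, limma adjusted p = 0.000564). *Cxcl12* was low, at 0.042 to 0.229 FPKM in mutants and 0.437 to 0.703 FPKM in controls.

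*Ackr4* (ENSMUSG00000079355, chr9:104084157-104126933, minus strand), an atypical receptor that removes *Ccl19*, *Ccl21* and *Ccl25*, had 5.80, 4.70, 5.17 and 5.00 FPKM in mutants, against 19.0, 18.9, 17.3 and 16.9 FPKM in controls. The groups did not overlap and the spread within each was small, with a log2 difference of -1.63 and a standard error of 0.09 (limma adjusted p = 2.94e-06). An exon of *Ackr4* overlaps *Acad11* on the other strand, and one of *Ccl25* overlaps *Elavl1* in the same way. *Ccl25* (ENSMUSG00000023235, chr8:4325210-4360020, plus strand) itself, a ligand best known from thymus and gut, had 2.38, 2.203, 2.22 and 2.51 FPKM in mutants, against 2.51, 1.98, 2.86 and 1.89 FPKM in controls. These values overlapped, and the 95% interval of its log2 difference ran from -0.24 to 0.27 (limma adjusted p = 0.918). *Cx3cl1* (ENSMUSG00000031778, chr8:94772009-94782427, plus strand), the membrane-bound chemokine fractalkine, had 6.11, 4.33, 6.50 and 5.56 FPKM in mutants, against 5.98, 5.20, 7.07 and 6.63 FPKM in controls (95% interval -0.43 to 0.17, limma adjusted p = 0.459). Its sign was positive after median-of-ratios scaling, at 0.04, and after quantile normalization, at 0.11.

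*Ccr1* (ENSMUSG00000025804, chr9:123962124-123968692, minus strand), a receptor of myeloid cells for inflammatory CC chemokines, had 0.812, 0.887, 0.867 and 1.35 FPKM in mutants, against 2.85, 4.64, 3.74 and 2.47 FPKM in controls. No mutant reached the lowest control, and the log2 difference was -1.14 with a standard error of 0.16 (limma adjusted p = 0.000547). In the 4 libraries outside the label numbers 68 to 71 it was -0.83 and did not pass (adjusted p = 0.0677). Of 13 myeloid and Langerhans cell markers, 13 had a lower mean in mutants and 10 had groups that did not overlap. Their summed FPKM was 54.9 to 64.1 in mutants and 154 to 235 in controls, led by *Tyrobp*, at 15.5 to 18.5 FPKM in mutants and 50.6 to 72.9 FPKM in controls. *Cd207*, the defining marker of mature Langerhans cells, was near 0 in both groups, at up to 0.033 FPKM in mutants and up to 0.187 FPKM in controls. Hair follicle markers were lower in mutants as given above, and fibroblast markers summed to 79.6 to 163 FPKM in mutants and 174 to 268 FPKM in controls. Nearly all of that fibroblast sum was *Dcn*, at 78.1 to 158 FPKM in mutants and 165 to 250 FPKM in controls. Of the 7 fibroblast markers, 3 had groups that did not overlap, and several were near 0. Keratinocyte markers had higher sums in mutants, at 37051 to 48613 FPKM, against 27463 to 32523 FPKM in controls. Of these 6 markers only *Krt14* passed the test as higher, and 5 did not pass. *Trp63* went the other way, at 67.9 to 133 FPKM in mutants and 140 to 148 FPKM in controls. Melanocyte marker sums were also higher in mutants, at 293 to 643 FPKM, against 201 to 267 FPKM in controls. The endothelium sum was higher too, at 1.33 to 1.64 FPKM in mutants and at most 0.757 FPKM in controls. Most of it was *Pecam1*, at 0.910 to 1.12 FPKM in mutants and 0.299 to 0.556 FPKM in controls, and 1 of the 6 endothelium markers had a lower mean in mutants. Sums of mast cell, pericyte and muscle, and red cell markers overlapped between the groups. The part of these cell types in the receptor results was not tested. Neutrophil markers were low in both groups, with *Ly6g* at 0 in all 8 libraries and sums of 0.211 to 1.29 FPKM in mutants and 0.430 to 1.32 FPKM in controls.

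The 4 other ligands above the filter at P0 are made on demand, and their levels split the libraries within each group. *Cxcl1* (ENSMUSG00000029380, chr5:90891241-90893115, plus strand), which draws neutrophils through *Cxcr2*, had 2.21, 34.0, 26.8 and 4.80 FPKM in mutants, against 2.21, 16.8, 14.3 and 0.824 FPKM in controls. *Cxcl2* (ENSMUSG00000058427, chr5:90903871-90905938, plus strand), which binds the same receptor, had 1.37, 12.8, 7.70 and 1.45 FPKM in mutants, against 4.01, 30.2, 23.4 and 3.50 FPKM in controls. Mutants 2 and 3 and controls 2 and 3 were high, and the other 4 libraries were low. *Cxcl10* (ENSMUSG00000034855, chr5:92346638-92348889, minus strand), an interferon-induced ligand of *Cxcr3*, had 0.985, 4.18, 5.45 and 1.75 FPKM in mutants, against 1.62, 6.34, 4.95 and 0.400 FPKM in controls. An exon of *Cxcl10* overlaps *Art3* on the other strand. *Ccl3* (ENSMUSG00000000982, chr11:83647844-83649355, minus strand), also called MIP-1 alpha, had 0.424, 1.50, 0.874 and 0.696 FPKM in mutants, against 1.009, 6.83, 4.11 and 0.625 FPKM in controls.

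The 4 high libraries carry the label numbers 68 to 71, and the low ones carry 63, 64, 76 and 77. What these numbers stand for is not given in the labels. Of the 14 genes above the filter, 4 were higher in the libraries 68 to 71 than in the others within both groups, and so were 4 under the filter, *Ccl2*, *Ccl4*, *Ccl12* and *Ccl17*. Among all 13033 genes tested this held for 6.31%. The 2 high controls are also the only controls with *K14-Cre*, so label number and Cre cannot be told apart among controls, while all 4 mutants carry Cre. None of the 4 ligands passed the test between mutants and controls over all 8 libraries without a term for this split. Log2 differences were 0.88 for *Cxcl1* (95% interval -1.26 to 3.02, limma adjusted p = 0.486), -1.16 for *Cxcl2* (95% interval -2.94 to 0.63, adjusted p = 0.269), 0.05 for *Cxcl10* (adjusted p = 0.956) and -0.88 for *Ccl3* (adjusted p = 0.154). With the run of label numbers as a block, added after seeing the data, *Cxcl1* was higher in mutants (limma adjusted p = 0.0222) and *Cxcl2* (adjusted p = 0.0018) and *Ccl3* (adjusted p = 0.0477) were lower, while *Cxcl10* did not pass (adjusted p = 0.883).

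**Figure D2:**
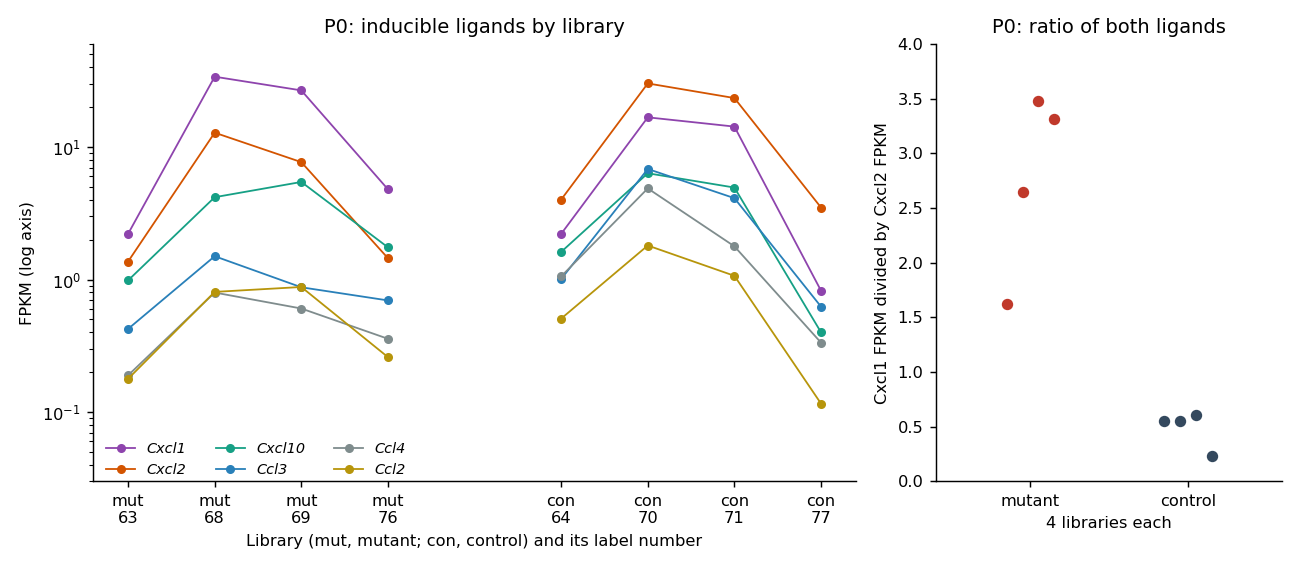
Left, FPKM on a log axis of 6 inducible ligands in the 8 P0 libraries, mutants before controls, each marked with its label number, with lines joining the libraries of a group as a guide to the eye. Each of the 6 is higher in 68 to 71 than in the other libraries of its group. Right, *Cxcl1* FPKM divided by *Cxcl2* FPKM in each library, 1.62 to 3.48 in mutants and 0.235 to 0.609 in controls.

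Within the label numbers 68 to 71, an alternative added after seeing the data with 2 mutants and 2 controls, *Cxcl1* was higher in mutants (log2 difference 0.92, limma adjusted p = 0.0109), while *Cxcl2* (-1.33, adjusted p = 0.0176) and *Ccl3* (-1.55, adjusted p = 0.0128) were lower. In the other 4 libraries the differences were 0.83 for *Cxcl1* (adjusted p = 0.235), -0.98 for *Cxcl2* (adjusted p = 0.0317) and -0.22 for *Ccl3* (adjusted p = 0.498). The ratio of *Cxcl1* to *Cxcl2* FPKM, also chosen after the values were seen and therefore given with no test, was 1.62, 2.65, 3.48 and 3.31 in mutants, against 0.551, 0.555, 0.609 and 0.235 in controls. *Cxcl1* was thus the more abundant of the pair in all 4 mutants and *Cxcl2* in all 4 controls, in high and low libraries alike.

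Regulators of these ligands were read from a list of 23 genes of NF-kB signalling and its inducers, of which 23 were tested at P0, 5 rose, 3 fell and 15 did not pass, beside 11.7% of all genes that rose and 30.7% that fell. The median log2 difference was 0.05. *Bcl3*, a nuclear partner of NF-kB p50 and p52, rose to 14.2, 15.4, 13.49 and 18.4 FPKM in mutants, against 3.01, 2.30, 4.17 and 2.19 FPKM in controls (log2 difference 2.08, limma adjusted p = 2.15e-05). *Tnfrsf1a*, a receptor of tumour necrosis factor, rose by 0.56 on the log2 scale (adjusted p = 0.000205) and *Myd88*, an adaptor of Toll-like and interleukin-1 receptors, by 0.76 (adjusted p = 0.000523). *Tnf* and *Nfkbia*, named after their values were seen, followed the label numbers. *Tnf*, which encodes tumour necrosis factor, had 1.15, 11.7, 12.5 and 1.78 FPKM in mutants, against 0.9998, 6.48, 5.74 and 0.766 FPKM in controls. *Nfkbia*, an inhibitor of NF-kB that NF-kB itself induces, had 79.4, 200.4, 212 and 80.4 FPKM in mutants, against 49.8, 148, 136 and 34.7 FPKM in controls. The 4 mutants lay above the 4 controls for *Bcl3*, with no such split by label number.

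Of 18 genes of chemokine receptor signalling, 15 were tested at P0, of which 8 fell, 1 (*Rac1*) rose and 6 did not pass, beside 30.7% of all genes that fell and 11.7% that rose. The median log2 difference was -0.65. *Elmo1*, a partner of the Rac activator DOCK2, fell to 1.44, 1.96, 1.62 and 1.25 FPKM in mutants, against 6.66, 8.71, 7.51 and 8.71 FPKM in controls (log2 difference -1.79, limma adjusted p = 1.05e-05). *Pik3cg*, the phosphoinositide 3-kinase that G proteins activate in leukocytes, had 0.180 to 0.236 FPKM in mutants and 1.39 to 1.72 FPKM in controls (-1.08, adjusted p = 2.53e-05). *Rac2*, a GTPase of blood cells, had 0.490 to 0.581 FPKM in mutants and 1.96 to 2.33 FPKM in controls (-1.03, adjusted p = 2.68e-05). *Pik3cg* and *Rac2* passed the filter through the controls alone. The myeloid and T cell markers given above were lower in the same mutant libraries, and their part in these lists was not tested. Of 10 chemokine genes outside the naming pattern, 6 were tested, of which 2 fell, 1 rose and 3 did not pass, beside the same shares of all genes. *Cx3cr1*, the receptor of *Cx3cl1* on myeloid cells, fell to 1.68, 1.32, 1.72 and 1.79 FPKM in mutants, against 10.2, 15.0, 9.18 and 9.11 FPKM in controls (log2 difference -2.15, adjusted p = 1.41e-05), beside summed myeloid markers of 54.9 to 64.1 FPKM in mutants and 154 to 235 FPKM in controls. *Cd74*, the invariant chain of MHC class II and a receptor of *Mif*, fell by 2.83 on the log2 scale (adjusted p = 5.00e-05). *Dpp4*, a surface protease that trims chemokines such as *Cxcl12*, rose to 23.4, 27.3, 27.1 and 23.8 FPKM in mutants, against 9.84, 9.56, 10.5 and 11.7 FPKM in controls (1.21, adjusted p = 1.72e-05).

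The other 40 genes did not pass the filter at P0. *Ccl26* and *Cxcl13* were at 0 in all 8 libraries, 22 stayed under 0.5 FPKM in every library (the 2 at 0 included), and the highest value among the 40 was 4.87 FPKM, of *Ccl4* in control 2. The 6 with the highest mean were *Ccl4*, *Ccl9*, *Ccl6*, *Ccl12*, *Ccl2* and *Ackr2*. *Ccl4*, a close relative of *Ccl3*, had 0.189, 0.798, 0.604 and 0.357 FPKM in mutants, against 1.06, 4.87, 1.78 and 0.334 FPKM in controls, and *Ccl2*, which draws monocytes, had 0.178, 0.807, 0.879 and 0.260 FPKM in mutants, against 0.507, 1.81, 1.07 and 0.116 FPKM in controls. Both overlapped between the genotypes and were high in the libraries 68 to 71. *Ccl9* and *Ccl6*, CC ligands of rodents, also overlapped, *Ccl9* at 0.592 to 1.301 FPKM in mutants and 0.024 to 1.11 FPKM in controls, and *Ccl6* at 0.493 to 1.48 FPKM in mutants and 0.283 to 1.009 FPKM in controls. *Ccl12*, a ligand of *Ccr2*, had 0.192, 0.215, 0.388 and 0.142 FPKM in mutants, against 0.887, 1.85, 1.37 and 1.03 FPKM in controls. *Ackr2*, which removes inflammatory CC chemokines, overlapped, at 0.290 to 1.20 FPKM in mutants and 0.394 to 1.25 FPKM in controls.

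Without the filter, 52 of the 54 genes could be tested at P0 among 27586, of which 5.97% rose and 17.1% fell. Of the 38 genes under the filter that were above 0 in a library, 7 fell and 2 rose, close to those shares of all genes. The 7 were *Ccl12*, *Cxcl12*, *Ccr2*, *Ccr4*, *Ccr8*, *Ccr10* and *Cxcr6*, and the 2 were *Cxcr2* and *Ccr9*. These names, other than *Ccl12*, were chosen after the values were seen. *Ccr2*, a receptor of monocytes, had 0.060, 0.068, 0.033 and 0.008 FPKM in mutants, against 0.674, 0.548, 0.204 and 0.718 FPKM in controls (limma adjusted p = 0.00864 without the filter). *Ccr8*, a receptor of skin T cells, had 0.045 to 0.067 FPKM in mutants and 0.374 to 0.780 FPKM in controls. *Ccr4*, another receptor of T cells, had 0.071 to 0.310 FPKM in mutants and 0.409 to 1.32 FPKM in controls. *Ccr10*, the receptor of *Ccl27a*, had 0.303, 0.1598, 0.215 and 0.181 FPKM in mutants, against 0.629, 0.559, 0.680 and 0.619 FPKM in controls.

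*Cxcr2*, the receptor of *Cxcl1* and *Cxcl2*, went the other way, with 1.42, 0.672, 0.471 and 0.586 FPKM in mutants, against 0.148, 0.103, 0.099 and 0.159 FPKM in controls (limma adjusted p = 0.0167 without the filter). Every mutant was above every control, while the neutrophil markers were low in both groups, as given above. *Ccr9*, the receptor of *Ccl25*, had 0.335 to 0.657 FPKM in mutants and 0.069 to 0.224 FPKM in controls, but its exons overlap 3 other genes. Among genes above 0 in at least 1 P0 library, mutants lay wholly below controls in 20.9% and wholly above in 7.16%. Among the 54 chemokine genes this held for 15 and 3.

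At E13.5, fewer chemokine genes were read: 9 of the 54 passed the filter, 8 of them among the 14 of P0 and *Cxcl12* in addition. In the libraries titled mutant, *Cx3cl1*, *Cxcr4*, *Cxcl14* and *Ackr3* were higher and *Cxcl16* was lower, and the other 4 did not pass the test. Of all 12866 genes tested, 11.8% were higher and 13.4% lower in the libraries titled mutant. By that 2-fold rule on log2(FPKM + 1), 0 chemokine genes were higher and 0 lower, beside 0.21% and 0.917% of all genes. The added 1 shrinks changes of low genes, and the ratio of mean FPKM was over 2 for *Cx3cl1*, at 2.02-fold higher in titled mutants, and for *Cxcl16*, at 2.72-fold lower. By column name the same numbers hold with the directions exchanged, so that *Cxcl16* is the 1 gene that is higher in mutants and *Cx3cl1*, *Cxcr4*, *Cxcl14* and *Ackr3* are the 4 that are lower.

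**Figure D3:**
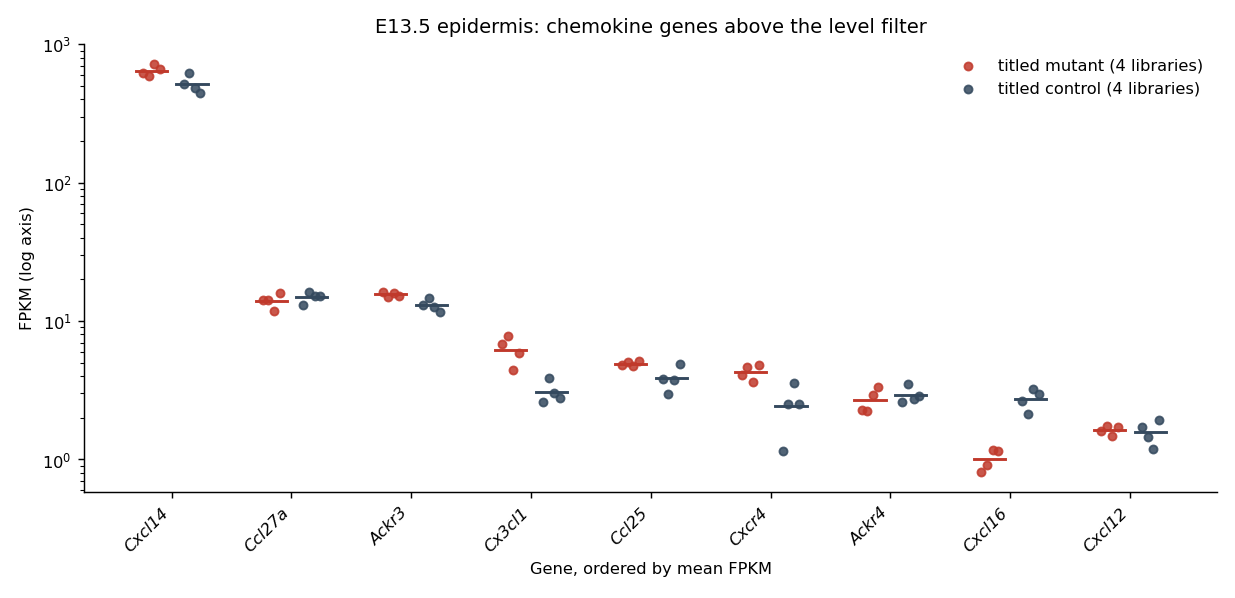
FPKM of the 9 chemokine genes above the level filter at E13.5, on a log axis, with 1 point per library (4 titled mutant left, 4 titled control right) and a bar at the mean of each group. The groups do not overlap for *Cx3cl1*, *Cxcr4*, *Ackr3* and *Cxcl16*. By column name the left groups would be the controls.

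*Cxcl16* had 0.811, 0.909, 1.17 and 1.15 FPKM in the libraries titled mutant, against 2.65, 2.12, 3.25 and 2.96 FPKM in those titled control. The groups did not overlap, and the log2 difference was -0.89 with a standard error of 0.11 (limma adjusted p = 0.000749). It passed in all 15 alternatives that could give it a value. *Cx3cl1* had 6.78, 7.80, 4.401 and 5.90 FPKM in the libraries titled mutant, against 2.61, 3.90, 3.03 and 2.79 FPKM in those titled control (log2 difference 0.81, standard error 0.15, limma adjusted p = 0.0062). It missed the threshold without the 2 titled controls of label number 67 (0.76, adjusted p = 0.067), a number that no library titled mutant carries.

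*Cxcr4* had 4.08, 4.63, 3.64 and 4.79 FPKM in the libraries titled mutant, against 1.15, 2.51, 3.60 and 2.53 FPKM in those titled control (log2 difference 0.66, standard error 0.20, limma adjusted p = 0.0424). The groups met closely, at 3.64 FPKM in titled mutant 3 and 3.60 FPKM in titled control 3. *Ackr3* had 16.3, 14.8, 16.05 and 15.3 FPKM in the libraries titled mutant, against 13.2, 14.7, 12.6 and 11.6 FPKM in those titled control (0.25, adjusted p = 0.0285). *Cxcl12* (ENSMUSG00000061353, chr6:117168535-117181367, plus strand), the ligand of both, had 1.61, 1.74, 1.48 and 1.73 FPKM in the libraries titled mutant, against 1.70, 1.46, 1.19 and 1.91 FPKM in those titled control, with a 95% interval of -0.18 to 0.27 (adjusted p = 0.761). *Cxcr4* lost its call when any titled mutant, or titled control 2 or 4, was left out (adjusted p = 0.0537 to 0.0987). It was lost in 10 of 15 alternatives in all, among them a pseudocount of 0.1 (adjusted p = 0.0537), quantile normalization (adjusted p = 0.0515) and no filter (adjusted p = 0.114). *Ackr3* lost it without titled mutant 1, 3 or 4 or titled control 3 or 4 (adjusted p = 0.056 to 0.0746), and without label number 67 it was 0.15 (adjusted p = 0.192).

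*Cxcl14* was the most abundant here as well, at 616, 589, 715 and 658 FPKM in the libraries titled mutant, against 513, 624, 484 and 445 FPKM in those titled control. It made up 93.8% to 96.6% of the summed ligand FPKM in the 8 libraries. Titled control 2 lay within the range of the libraries titled mutant, and the log2 difference was 0.33 with a standard error of 0.10 (limma adjusted p = 0.0455). That call was lost on leaving out any library other than titled control 2 (adjusted p = 0.0548 to 0.111), and without label number 67 the difference was 0.18 (adjusted p = 0.298). *Ccl27a* had 14.1, 14.2, 11.9 and 15.95 FPKM in the libraries titled mutant, against 13.1, 16.1, 15.2 and 15.1 FPKM in those titled control (95% interval -0.28 to 0.12, adjusted p = 0.529). *Ackr4* had 2.26, 2.23, 2.91 and 3.35 FPKM in the libraries titled mutant, against 2.60, 3.54, 2.73 and 2.89 FPKM in those titled control (95% interval -0.37 to 0.16, adjusted p = 0.565). *Ccl25* had 4.81, 5.06, 4.73 and 5.13 FPKM in the libraries titled mutant, against 3.81, 2.996, 3.78 and 4.91 FPKM in those titled control (0.30, adjusted p = 0.0728). Without titled control 4 it passed (0.39, adjusted p = 0.0164), as it did without label number 67 (0.44, adjusted p = 0.0324).

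The inducible ligands were nearly silent in the embryo. *Cxcl1* had 0.507 to 0.668 FPKM in the libraries titled mutant and 0.2002 to 0.620 FPKM in those titled control, and *Cxcl2* at most 0.104 FPKM in titled mutants and 0.133 FPKM in titled controls. *Cxcl10* had 0.0785 to 0.733 FPKM in titled mutants and 0.118 to 0.728 FPKM in titled controls. *Ccl1*, *Ccl8*, *Ccl26*, *Ccr3*, *Ccr6*, *Cxcl3*, *Cxcl13*, *Cxcl15* and *Xcl1* were at 0 in all 8 libraries, and no gene under the filter reached 1 FPKM. The 6 of these 45 with the highest mean were *Cxcl1*, *Cxcl10*, *Ccr10*, *Ccl28*, *Cxcl11* and *Ccl20*. *Ccr10* had 0.520, 0.420, 0.565 and 0.734 FPKM in the libraries titled mutant, against 0.258, 0.144, 0.158 and 0.125 FPKM in those titled control, without overlap (limma adjusted p = 0.0091 without the filter, where 9.69% of 26731 genes passed, 4.32% higher and 5.37% lower). Among the 54 chemokine genes the titled groups did not overlap in 4 that were higher (*Ackr3*, *Cx3cl1*, *Cxcr4* and *Ccr10*) and 1 that was lower (*Cxcl16*), beside 8.16% and 8.46% of all genes above 0 in a library. Markers of leukocytes were low: the 13 myeloid and Langerhans cell markers summed to 8.58 to 11.8 FPKM in titled mutants and 7.98 to 11.4 FPKM in titled controls, with *Cd207* at 0. The T cell markers *Cd3d* and *Cd3g* were at 0, and their list summed to 14.7 to 15.1 FPKM in titled mutants and 11.5 to 13.4 FPKM in titled controls, nearly all from *Lck*.

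Of the pathway genes at E13.5, 13 of the receptor signalling list were tested, of which 2 were higher and 1 was lower in the libraries titled mutant, close to the 11.8% and 13.4% of all genes. *Plcb3*, a phospholipase C activated by G proteins, had 40.1 to 42.3 FPKM in titled mutants and 32.3 to 34.0 FPKM in titled controls (log2 difference 0.29, limma adjusted p = 0.000399). *Gnai2*, the main inhibitory G protein subunit of leukocytes, was lower by 0.12 (adjusted p = 0.0143), and *Arrb2*, a beta-arrestin that stops receptor signalling, was higher by 0.20 (adjusted p = 0.0371). Of 21 NF-kB genes tested, *Il1r1* was lower (-0.19, adjusted p = 0.0278) and 20 did not pass. Of 3 tested chemokine genes outside the naming pattern, *Cd74* was higher (0.36, adjusted p = 0.0411).

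The 8 genes above the filter at both stages allow the mutant difference at P0 to be set against that at E13.5. The stages also differ in material (freed keratinocytes against epidermal sheets), in table and in Cre among controls. Myeloid marker sums differed as well, at 154 to 235 FPKM in P0 controls and 7.98 to 11.4 FPKM in E13.5 titled controls. Stage cannot be told apart from these. The contrast of the 2 differences was tested in limma over 11858 genes, and with E13.5 by title it passed for 46.4% of them, 14.6% with a higher and 31.8% with a lower difference at P0. Of the 8, 5 had a lower difference at P0: *Cxcr4* by 3.23 on the log2 scale (adjusted p = 3.72e-07), *Ackr4* by 1.52 (adjusted p = 6.47e-07), *Ackr3* by 1.15 (adjusted p = 1.66e-05), *Cx3cl1* by 0.94 (adjusted p = 0.00184) and *Cxcl14* by 0.73 (adjusted p = 0.000469). *Cxcl16* had a higher one, by 1.44 (adjusted p = 2.94e-05). *Ccl27a* (adjusted p = 0.0519) and *Ccl25* (adjusted p = 0.155) did not pass. With E13.5 by column name, *Ackr4* (-1.73, adjusted p = 5.84e-07), *Cxcr4* (-1.90, adjusted p = 0.000167), *Ackr3* (-0.66, adjusted p = 0.00361) and *Ccl27a* (-0.81, adjusted p = 0.0252) had a lower difference at P0 and *Cx3cl1* a higher one (0.68, adjusted p = 0.0214), beside 25.2% and 7.58% of genes, and 32.8% passed in all. Exchanging the E13.5 groups only reverses the sign of the E13.5 difference. The contrast therefore keeps the direction of the P0 difference under both groupings wherever that is the larger in size, as for *Cxcr4*, *Ackr3* and *Ackr4*. Their shared direction is thus no second test of a stage difference. *Cxcl16* (-0.35, adjusted p = 0.196) and *Cxcl14* (-0.08, adjusted p = 0.702) passed by title only, and *Cx3cl1* changed sign.

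**Figure D4:**
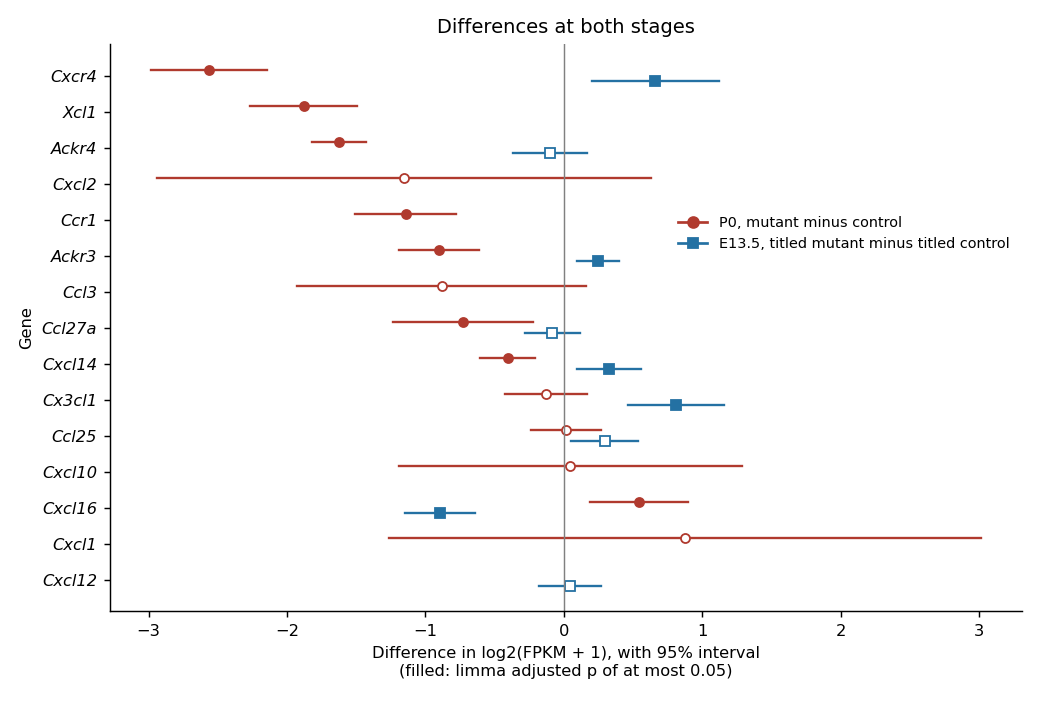
Differences in log2(FPKM + 1) with 95% intervals for the 15 chemokine genes above the filter at P0 (circles, mutant minus control), E13.5 (squares, titled mutant minus titled control) or both, filled where the limma adjusted p was at most 0.05. *Cxcr4*, *Ackr3* and *Cxcl14* lie to the left at P0 and to the right at E13.5, and *Cxcl16* the other way round, while by column name each square would move to the other side of 0.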

How the data were processed

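RNA-Seq of skin epidermis was read in 16 libraries. The authors deposited FPKM values, made with the QuickNGS pipeline, as 2 tables of 49452 genes, one per stage. The submitters' processing notes list mm10, FastQC 0.11.5 and bcl2fastq (2.18.0.12, 2.17.1.14). No aligner is named in the sources used here. FPKM carry no read numbers, so depth was compared through values under 0.2 FPKM, and levels were tested within a table only. Groups follow titles and genotype tags, and E13.5 was repeated by column name. No 2 libraries of a stage held identical values.

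The 54 genes were found by symbol in both tables. Of the 49452 rows, 20695 carry a symbol, and 4 rows with a compound symbol cell (*Ccl19*, *Ccl21a*, *Ccl21b* and *Ccl27b*, at most 0.308 FPKM) were not taken. Genes that reached 1 FPKM in 4 or more of the 8 libraries were tested on log2(FPKM + 1), a scale that understates changes of low genes, with limma 3.58.1 (mean trend, two-sided, Benjamini-Hochberg over all genes tested, threshold 0.05) in R 4.3.3. An exact permutation test of 4 against 4 cannot go below 0.0286, which the 6 genes without overlap at P0 and 4 at E13.5 reach. The test was checked on simulated data. Summaries and plots used numpy 2.4.6, pandas 2.3.3 and matplotlib 3.10.9 under Python 3.11.15. Overlapping exons were read from GENCODE M21 (GRCm38), and promoters from RefSeq (GRCm38.p6).

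Genes above the filter are named with every library's value. Of the others, the 6 with the highest mean per stage and those at 0 are named, with up to 3 genes per pathway list by adjusted p. The members, the lists and this rule were chosen with earlier results of these data known. Choices changed 1 at a time were the pseudocount (0.1), the filter (none, or a mean of 5 FPKM), the scaling (median of ratios, or quantile), the mean trend (none) and a block for replicate number, together with leaving out each library, P0 controls with *K14-Cre* only and E13.5 without label number 67. The P0 label numbers, used as a block or to split the libraries, were added after seeing the data.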

Additional observations from a re-analysis of the deposited data

Results flagged for a closer look

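Among the 46 groups of 4 libraries examined, 1 library stood far from the other 3 of its group. *Ccr1* at P0 had 1.35 FPKM in mutant 4, and the gap to the next mutant took up 0.859 of the range of the group, above Dixon's 95% critical value. Chance alone marks about 1 in 20 groups.

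Differences between mutants and controls that themselves differed between the stages were found for 6 of the 8 genes compared, by a limma contrast with E13.5 by title. Stage cannot be told apart here from material, table and Cre among controls. The contrast, P0 minus E13.5, was -3.23 for *Cxcr4*, -1.52 for *Ackr4*, -1.15 for *Ackr3*, -0.94 for *Cx3cl1*, -0.73 for *Cxcl14* and 1.44 for *Cxcl16* on the log2 scale. Only the first 3 passed in the same direction with E13.5 by column name. That exchange only reverses the sign of the E13.5 difference, which for these 3 was smaller than that at P0.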

How the results depend on the processing

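At P0, 7 chemokine genes lower and 1 higher became 13 and 3 of 52 without the filter, when 17.1% of all 27586 genes fell and 5.97% rose. With controls carrying *K14-Cre* only, or the label numbers outside 68 to 71, 0 were higher. Leaving out single libraries gave 0 to 1 higher (0 without control 1 or 4) and 6 to 7 lower. Among all genes, 1520 higher and 3995 lower became 2725 and 2300 with median-of-ratios scaling, 829 and 2173 with *K14-Cre* controls and 398 and 892 outside 68 to 71, and the lower genes were 2478 at a mean FPKM of at least 5 and 2506 after quantile normalization. *Cxcr4*, *Xcl1*, *Ackr3* and *Ackr4* kept their calls in all alternatives run. Signs turned only for genes without a call: *Ccl25* (-0.027 with *K14-Cre* controls, -0.078 in 68 to 71, -0.044 to 0.094 on leaving out libraries), *Cx3cl1* (0.043 and 0.11 by scaling), *Cxcl1* (-0.51 with *K14-Cre* controls) and *Cxcl10* (-0.85 with *K14-Cre* controls, -0.19 in 68 to 71, -0.40 to 0.40 on leaving out libraries).

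At E13.5, 4 chemokine genes higher and 1 lower became 2 higher without the filter, 2 higher and 0 lower at a mean FPKM of at least 5, and 2 higher without label number 67, when 536 genes in all were higher and 731 lower, against 1516 and 1727. Leaving out single libraries gave 1 to 3 higher, and 1001 to 1549 of all genes. *Cxcl12*, without a call, was -0.026 to 0.11 on leaving out libraries. Between stages, *Ccl25* was 0.032 with quantile normalization. The causes of these changes were not tested.

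Whether replicate numbers pair the libraries was not settled by these values. Over all genes tested, correlations of same-numbered libraries' deviations were -0.02 to 0.11 at P0 and -0.01 to 0.07 at E13.5. Those of differently numbered libraries were -0.18 to 0.20 at P0 and -0.10 to 0.08 at E13.5. At P0, replicates 2 and 3 of both groups are the libraries 68 to 71, so the replicate block also takes up that split. With the replicate number as a block, 2 chemokine genes were higher and 9 lower at P0, adding *Cxcl1* (adjusted p = 0.0314), *Cxcl2* (0.000943) and *Ccl3* (0.0494) to the calls, and 1 was higher and 1 lower at E13.5. With the run of label numbers as the block at P0, 2 were higher and 9 lower. The shares of all genes called with these blocks are not given here, so these counts cannot be set against them.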
